A study of Arabidopsis thaliana with 16 samples.

Results

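The genes described here are the alternative oxidases and type II NAD(P)H dehydrogenases of Arabidopsis thaliana, the enzymes that let electrons enter and leave the mitochondrial ubiquinone pool without pumping protons. They comprise 3 alternative oxidases (AOX1A, AOX1C and AOX1D), 2 internal dehydrogenases (NDA1 and NDA2) and 4 external dehydrogenases (NDB1, NDB2, NDB3 and NDB4), taken by locus code from a table of 32833 loci. All 9 were present, and all 9 passed a filter on low values (at least 10 in at least 2 libraries) in both organs. The family was chosen with earlier results of these libraries in view, above all its differences between the temperature regimes. Those differences are therefore a description with no p-value, and a gene said to be called below (adjusted p below 0.05 in a limma fit over all genes) is not independent support for the choice.

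The values are normalised read counts from RNA-seq of polyadenylated mRNA. The plants were wild-type seedlings, 10 days old, with no mutation or transgene in any group, and every group had spent its first 4 days at 22 °C. For the next 6 days the gradient group had its shoots at 32 °C above a root zone that became cooler with depth, the 32 °C group was at 32 °C throughout, and the 22 °C group stayed at 22 °C. Roots gave 3 libraries in the gradient, 3 at 32 °C and 1 at 22 °C, and shoots gave 2, 3 and 2. That count treats columns with equal values at every locus, namely replicates 1 and 2 of the 22 °C roots and replicates 2 and 3 of the gradient shoots, as 1 library each. The ecotype, the temperatures along the gradient and the number of seedlings per library are not stated in those labels or files.

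In the ordinary chain, complex I takes electrons from matrix NADH and complexes III and IV pass them on to oxygen, and all of these pump protons that drive ATP synthase. Plants also have a bypass. Internal NDA enzymes face the matrix and external NDB enzymes face the intermembrane space, and both feed electrons from NAD(P)H into ubiquinone. The alternative oxidase takes electrons from reduced ubiquinone straight to oxygen. AOX1A is the family member best known for induction when the cytochrome chain is blocked, and NDB2 is known to be co-induced with it in many stresses. NAC transcription factors such as ANAC013 and ANAC017 bind the mitochondrial dysfunction motif in the promoters of AOX1A and other genes of this response.

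That motif was searched on both strands of the window from 250 bases before to 50 bases after each annotated start. The windows came from RefSeq's TAIR10.1 assembly through the locus codes, because the deposited values carry no coordinates and the genome build behind them is not stated. It occurred in 4 of the 9 windows (AOX1A, NDA1, NDB2 and NDB3), against 1.42% of the windows of 27443 protein-coding genes. The stretches with the match are shown 5′ to 3′ on the gene's strand, with the motif in capitals. AOX1A and NDB2 are abundant messages in roots, and NDA1 and NDB3 rose in 32 °C roots. NDB4 and AOX1C, which had no match, rose more than NDA1 there.
AOX1A, chr3:7906498-7906530, plus strand, from base -23: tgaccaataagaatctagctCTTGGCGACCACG
NDA1, chr1:2204014-2204066, plus strand, from base -90: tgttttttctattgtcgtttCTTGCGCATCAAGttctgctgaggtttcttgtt
NDB2, chr4:2572328-2572380, plus strand, from base -99: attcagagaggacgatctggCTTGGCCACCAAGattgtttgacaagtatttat
NDB3, chr4:11439600-11439652, minus strand, from base -146: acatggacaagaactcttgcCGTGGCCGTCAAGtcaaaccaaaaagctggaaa

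In AOX1A the match shown straddles the start, with its first base at -3, and a further match began at base 25. The 250 bases before the starts of NDB3 and NDB4 are shown whole, with the same motif in capitals, because NDB3 was the gene nearest to NDB4 in its course over the libraries and the motif was found in NDB3 alone of this pair.
NDB3, chr4:11439507-11439756, minus strand: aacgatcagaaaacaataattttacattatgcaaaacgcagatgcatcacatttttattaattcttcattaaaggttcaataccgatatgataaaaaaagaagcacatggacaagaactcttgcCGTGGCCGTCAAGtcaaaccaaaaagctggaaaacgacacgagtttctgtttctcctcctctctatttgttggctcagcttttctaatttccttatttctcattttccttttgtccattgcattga
NDB4, chr2:8955832-8956081, minus strand: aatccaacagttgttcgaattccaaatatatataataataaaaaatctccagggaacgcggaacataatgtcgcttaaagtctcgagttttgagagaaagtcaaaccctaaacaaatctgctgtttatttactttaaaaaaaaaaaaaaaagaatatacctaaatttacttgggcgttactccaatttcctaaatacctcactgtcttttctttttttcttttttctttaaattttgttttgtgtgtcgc

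NDB4 had none of the motifs searched in this window. A pair of heat shock units, GAANNTTC or TTCNNGAA (these can overlap), occurred in the windows of NDA2 and NDB1 and in 19.3% of all windows, and a run of 3 units occurred in no member and in 0.481% of all. The G-box CACGTG occurred in NDB3 alone among the members, at base 1, and in 7.68% of all windows. The evening element of clock-regulated genes occurred in no member and in 2.82% of all. These are matches of letters, not shown to be bound.

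Some members share short stretches of coding sequence, and only a read within such a stretch would match both copies letter for letter. NDB2 and NDB3 were identical at 85.8% of aligned residues, and their longest shared stretch was 37 coding bases. NDA1 and NDA2 were identical at 83.7% with 32 bases, and AOX1A and AOX1C at 78.6% with 34 bases. Coding identity was 85.0%, 82.2% and 83.3% in the same order. NDB4 stood further off, at 68.3% from NDB3 and 67.6% from NDB2. How the authors counted reads that match several copies is not stated, so the values of these pairs are uncertain to that extent. In the 22 °C root NDB3 was 8 beside NDB2 at 3501, AOX1C 3 beside AOX1A at 3161, and NDA1 4 beside NDA2 at 557. There, few reads of the abundant copy were counted for its partner.

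Column totals of the 16 deposited columns lay between 33075029 and 34769425, and read depth itself is unknown. Summed over 5 green tissue markers, root libraries had 659 to 3230 normalised counts and shoot libraries 596112 to 949106. Summed over 5 root markers, root libraries had 389393 to 830729. Shoots had 222344 to 281406 of the root marker sum in the gradient and 202619 to 315246 at 32 °C, against 55919 to 62672 at 22 °C, so that this sum was higher in every warm shoot library. Of these 5 root markers, 2 were called higher in shoots in each warm regime against 22 °C, and 3 were not called. Their median log2 fold change in shoots was 0.05 at 32 °C and 0.22 in the gradient. Over all genes 55.6% and 52.6% were called higher in the same order. No marker was at 0 throughout a group. The part of the root marker signal in the shoot results was not tested, and in such bulk samples fewer cells of a type and less RNA per cell cannot be told apart.

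AOX1A (AT3G22370), the main alternative oxidase, was high in roots under every regime and rose with warmth in shoots. Its root values were 2152, 2120 and 2157 normalised counts in the gradient, 3202, 3053 and 3541 at 32 °C, and 3161 at 22 °C. Its shoot values were 1720 and 1712 in the gradient, 2837, 2699 and 3080 at 32 °C, and 654 and 476 at 22 °C. The 32 °C and 22 °C roots overlapped while every warm shoot lay above both 22 °C shoots, and gradient libraries lay below 32 °C libraries in both organs. Fold changes here are on the scale of log2(value + 1), with the standard error of the fit. The 22 °C root group is 1 library, so root errors against it rest on the spread of the warm root libraries. They do not measure the noise of low values in that library. At 32 °C against 22 °C AOX1A changed by 0.04 ± 0.14 in roots (not called) and rose by 2.36 ± 0.13 in shoots, a 5.13-fold difference. In the gradient against 32 °C it fell by 0.60 ± 0.10 in roots, and the shoot difference of -0.74 ± 0.13 was not called. In the gradient against 22 °C it rose by 1.62 ± 0.14 in shoots and fell by 0.56 ± 0.14 in roots. That root call was lost when replicate 1 of the 32 °C roots or replicate 2 of the gradient roots was left out. The same call was lost with only the groups compared and with either block for the replicate number.

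AOX1C (AT3G27620), an isoform close to AOX1A in sequence, was near 0 at 22 °C and rose in both warm regimes. Roots had 34, 39 and 59 normalised counts in the gradient, 227, 256 and 205 at 32 °C, and 3 at 22 °C. Shoots had 134 and 187 in the gradient, 181, 217 and 199 at 32 °C, and 6 and 5 at 22 °C. No warm library overlapped the 22 °C libraries of its organ, and in roots the gradient lay between the other regimes. Against 22 °C, AOX1C rose in the gradient by 3.45 ± 0.35 in roots and 4.62 ± 0.24 in shoots, and at 32 °C by 5.84 ± 0.35 in roots and 4.94 ± 0.22 in shoots. Gradient roots were lower than 32 °C roots by 5.24-fold (-2.39 ± 0.25, called), while gradient and 32 °C shoots overlapped (-0.32 ± 0.22, not called).

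AOX1D (AT1G32350), an isoform known to be induced by stress treatments and when AOX1A is missing, went the opposite way in roots and shoots at 32 °C. Root values were 29, 41 and 31 normalised counts in the gradient, 4, 14 and 13 at 32 °C, and 209 at 22 °C. Shoot values were 20 and 50 in the gradient, 31, 114 and 184 at 32 °C, and 7 and 15 at 22 °C. The 32 °C roots were lowest and the single 22 °C root library highest, with no overlap among the root regimes, whereas every warm shoot lay above both 22 °C shoots. In roots AOX1D fell by 4.37 ± 0.63 at 32 °C (20.7-fold) and by 2.61 ± 0.63 in the gradient against 22 °C, and gradient roots were above 32 °C roots by 1.75 ± 0.44. Gradient shoots differed from 22 °C shoots by 1.53 ± 0.82 and from 32 °C shoots by -1.43 ± 0.75, neither called, the latter with overlap. In shoots AOX1D rose by 2.96 ± 0.75 at 32 °C against 22 °C. That value was 2.46 and not called without replicate 1 of the 22 °C shoots, and 3.69 without replicate 1 of the 32 °C shoots. The root falls rest on the level of 1 library at 22 °C. Leaving out replicate 2 of the gradient roots ended the calls of the gradient against 22 °C and against 32 °C. The call against 22 °C also ended with no filter, in 1 fit of all libraries and with the replicate block under the higher number.

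**Figure D1:**
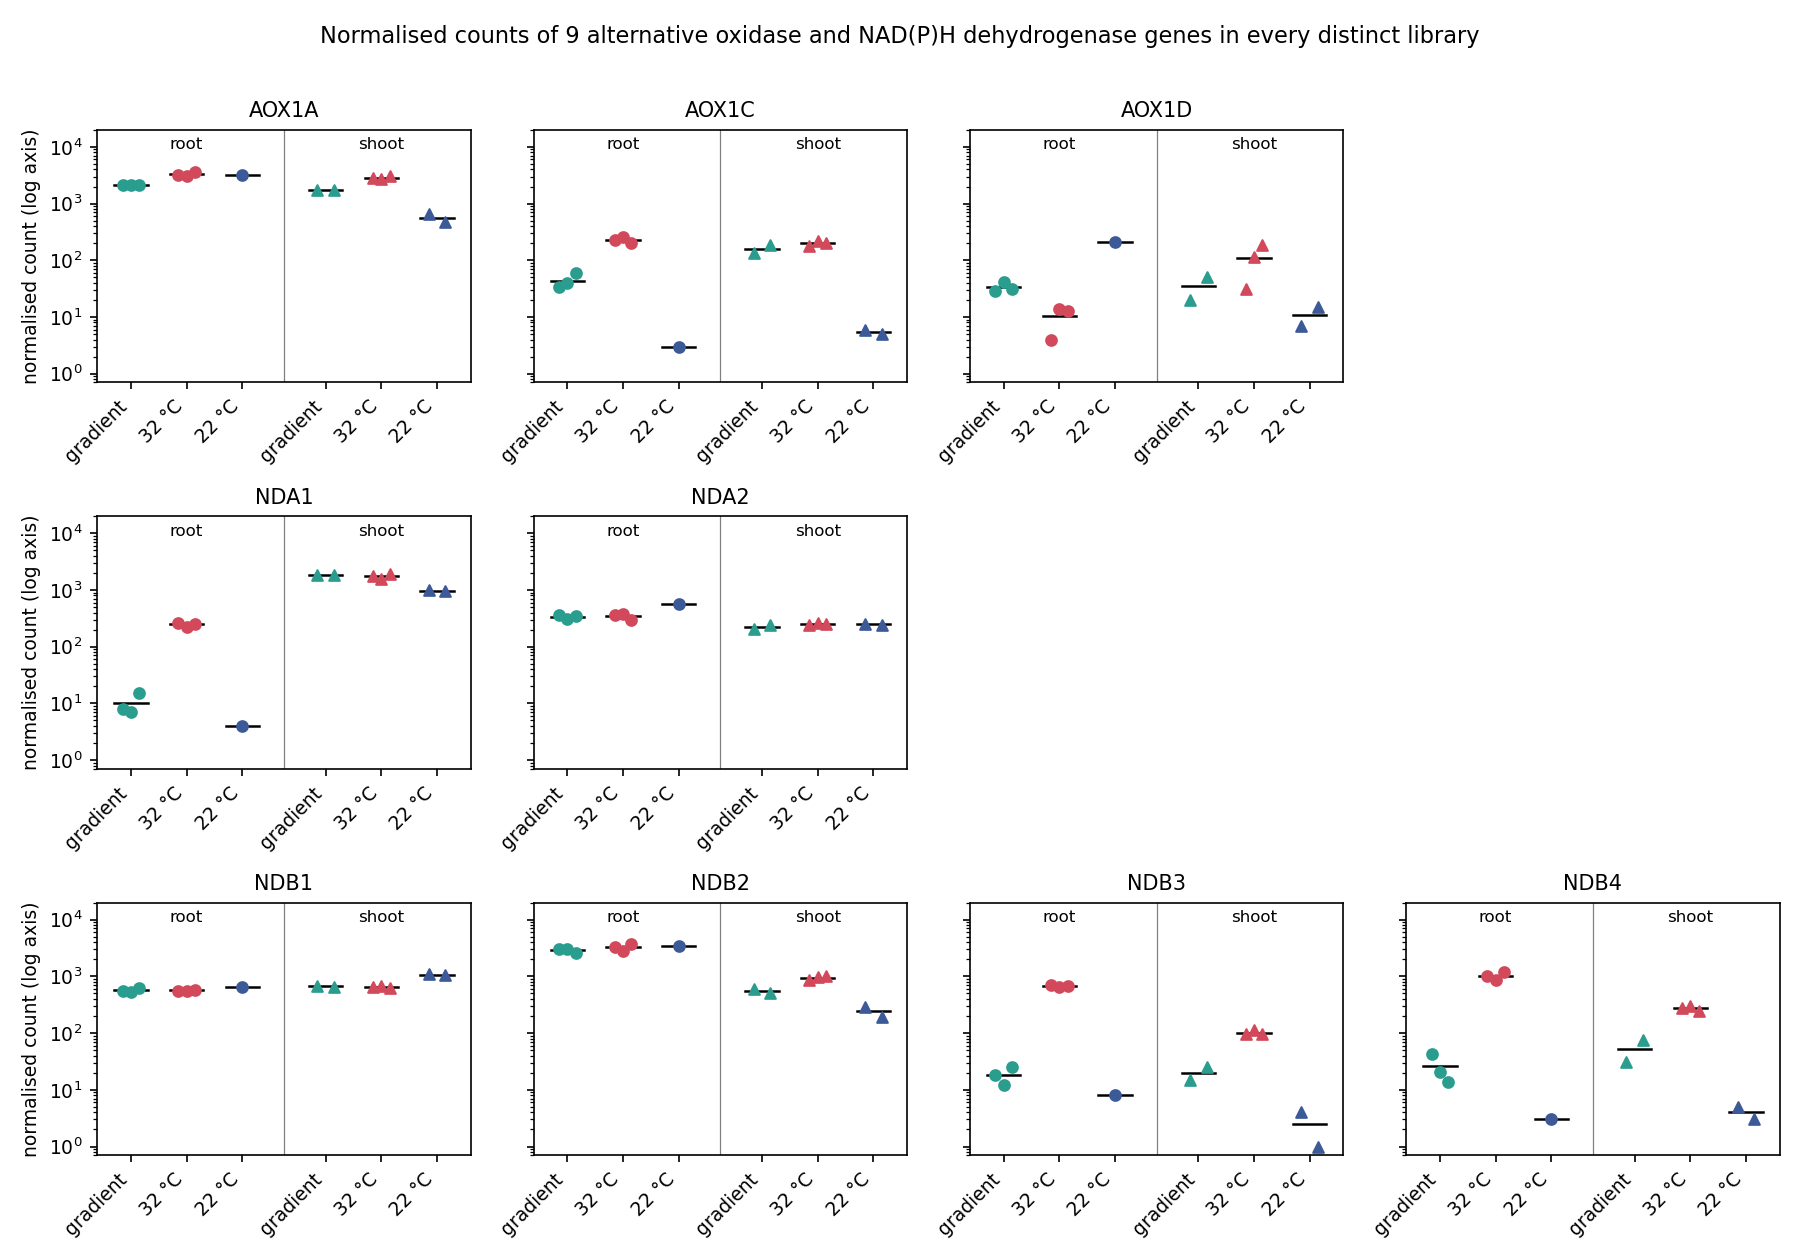
Normalised counts on a log axis for each gene, with roots as circles on the left and shoots as triangles on the right of each panel, by regime; each point is a distinct library and each black line a group mean. NDB4 sat at 873 to 1212 in 32 °C roots, above its values in all other groups, while NDA2 and NDB1 stayed within the same order of magnitude throughout.

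NDA1 (AT1G07180), an internal dehydrogenase whose message is known to depend on light in leaves, was far higher in shoots than in roots and rose in roots at 32 °C but was not called in gradient roots. Roots had 8, 7 and 15 normalised counts in the gradient, 267, 227 and 247 at 32 °C, and 4 at 22 °C. Shoots had 1839 and 1821 in the gradient, 1743, 1563 and 1934 at 32 °C, and 997 and 943 at 22 °C. Gradient roots stayed near the 22 °C root, far from the 32 °C roots, and gradient and 32 °C shoots overlapped. NDA1 rose at 32 °C against 22 °C by 5.63 ± 0.43 in roots (49.5-fold) and 0.84 ± 0.10 in shoots (1.79-fold). Gradient roots were far below 32 °C roots (-4.56 ± 0.31, called), and their difference from the 22 °C root of 1.07 ± 0.43 was not called. Gradient shoots were above 22 °C shoots by 0.92 ± 0.11 (called).

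NDA2 (AT2G29990), the other internal dehydrogenase, was lower in warm roots and was not called in shoots. Roots had 355, 305 and 342 normalised counts in the gradient, 363, 370 and 298 at 32 °C, and 557 at 22 °C. Shoots had 201 and 241 in the gradient, 240, 266 and 248 at 32 °C, and 253 and 240 at 22 °C. All warm roots lay below the 22 °C root, and the shoot regimes overlapped. Roots were lower by 0.74 ± 0.19 in the gradient and by 0.70 ± 0.19 at 32 °C against 22 °C, both called. The gradient call ended without replicate 1 or 2 of the 32 °C roots (-0.74 in each case) and without replicate 2 of the gradient roots (-0.68). It also ended with no filter, with only the groups compared, and with either block for the replicate number. Either block ended the 32 °C call too (-0.61 with the lower number, -0.71 with the higher). In shoots 32 °C against 22 °C gave 0.03 ± 0.13 (not called), and this became -0.43 (called) once the libraries were scaled with TMM factors, which also made the gradient value in shoots -0.62 and called.

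NDB1 (AT4G28220), the calcium-dependent external NADPH dehydrogenase, was lower in warm shoots and was not called in roots. Roots had 557, 520 and 617 normalised counts in the gradient, 550, 562 and 580 at 32 °C, and 657 at 22 °C. Shoots had 687 and 663 in the gradient, 649, 668 and 624 at 32 °C, and 1084 and 1062 at 22 °C. Against 22 °C, shoots were lower by 0.67 ± 0.09 in the gradient and by 0.73 ± 0.08 at 32 °C, both called, with no overlap. Root differences from 22 °C were -0.22 ± 0.16 in the gradient and -0.22 ± 0.16 at 32 °C, not called, and with TMM factors the 32 °C value was -0.52 and called.

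NDB2 (AT4G05020), an external NADH dehydrogenase stimulated by calcium, rose in warm shoots and was not called in roots. Roots had 3008, 3008 and 2589 normalised counts in the gradient, 3284, 2759 and 3695 at 32 °C, and 3501 at 22 °C. Shoots had 606 and 515 in the gradient, 851, 994 and 998 at 32 °C, and 292 and 196 at 22 °C. The 32 °C roots overlapped the other regimes, gradient roots lay below the 22 °C root, and shoots were lowest at 22 °C, intermediate in the gradient and highest at 32 °C without overlap. Against 22 °C, shoots rose by 1.22 ± 0.19 in the gradient and by 1.98 ± 0.18 at 32 °C, both called. The corresponding root values, -0.29 ± 0.19 and -0.12 ± 0.19, were not called.

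NDB3 (AT4G21490), an external family member of high similarity to NDB2, was almost silent except at 32 °C. Roots had 18, 12 and 25 normalised counts in the gradient, 704, 656 and 677 at 32 °C, and 8 at 22 °C. Shoots had 15 and 25 in the gradient, 96, 113 and 97 at 32 °C, and 4 and 1 at 22 °C. The 32 °C libraries stood far above every other library of their organ. Against 22 °C it rose at 32 °C by 6.24 ± 0.37 in roots (75.5-fold) and 5.02 ± 0.43 in shoots. In the gradient the rise over 22 °C was 2.69 ± 0.47 in shoots (called) and 1.05 ± 0.37 in roots (not called). The shoot rises rest on values of 1 and 4 at 22 °C. They were 3.35 in the gradient and 5.68 at 32 °C without replicate 1 of the 22 °C shoots, and 2.03 and 4.36 without replicate 2. Gradient roots lay 36.6-fold below 32 °C roots (-5.19 ± 0.26, called), and gradient shoots 5.04-fold below 32 °C shoots (-2.33 ± 0.43, not called).

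NDB4 (AT2G20800), an external NADH dehydrogenase, had the steepest rise of the family. Roots had 43, 21 and 14 normalised counts in the gradient, 1011, 873 and 1212 at 32 °C, and 3 at 22 °C. Shoots had 31 and 75 in the gradient, 280, 297 and 243 at 32 °C, and 5 and 3 at 22 °C. Within each organ the regimes did not overlap, with 22 °C lowest and 32 °C highest. Against 22 °C, roots rose at 32 °C by 8.0 ± 0.52 (256-fold) and in the gradient by 2.61 ± 0.52 (6.10-fold). Both root rises rest on a value of 3 in 1 library. The gradient root call ended with only the groups compared and with the replicate block under the higher number. The shoot rises over 22 °C were 5.80 ± 0.38 at 32 °C (55.8-fold) and 3.33 ± 0.41 in the gradient, both called. The gradient shoot value was 3.96 without replicate 1 of the gradient shoots and 2.71 without their other library. Gradient libraries lay below 32 °C libraries by 42.0-fold in roots (-5.39 ± 0.37, called) and 5.54-fold in shoots (-2.47 ± 0.38, not called).

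The size of the largest folds depends on very low values at 22 °C. With a pseudocount of 8, the log2 rise at 32 °C in roots was 6.55 for NDB4, 5.42 for NDB3, 4.43 for AOX1C and 4.41 for NDA1, and the fall of AOX1D was -3.62. In gradient roots against the 22 °C root it was 2.21 for AOX1C and 1.54 for NDB4, and NDA1 was -3.85 in gradient against 32 °C roots. In shoots against 22 °C a pseudocount of 8 gave 3.62 in the gradient and 3.94 at 32 °C for AOX1C, 1.41 and 3.40 for NDB3, and 2.25 and 4.55 for NDB4. NDB4 ranked 7th of 21757 genes by its rise in 32 °C roots over the 22 °C root, NDB3 27th, AOX1C 45th and NDA1 53rd, while AOX1D had the 38th largest fall. In roots those 4 rising genes passed the filter through the warm groups, since each was below 10 at 22 °C. In shoots the same holds for AOX1C, NDB3 and NDB4. AOX1D, at 7 and 15 in 22 °C shoots, also needed the warm shoots to pass there.

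**Figure D2:**
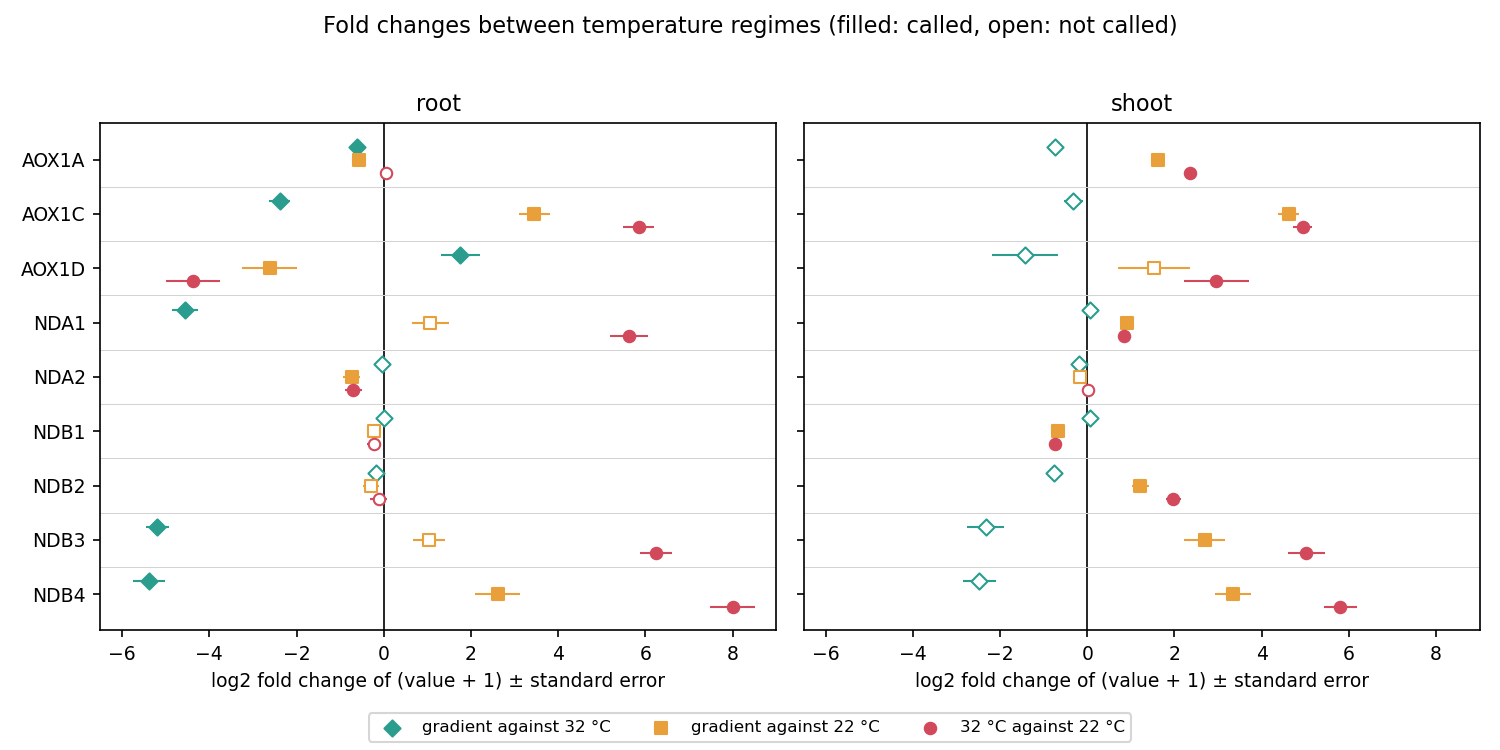
Log2 fold change of (value + 1) with its standard error (horizontal bars) for each gene in roots (left) and shoots (right), with a symbol and colour for each comparison of regimes; filled symbols were called over all genes and open ones were not. NDB4 and NDB3 lie at 8.0 and 6.24 for 32 °C against 22 °C in roots, and AOX1D lies at -4.37 in roots and 2.96 in shoots.

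The counts of called members are set beside the share called among all genes, and nothing is read from them because the family was chosen on these contrasts. In gradient roots against 32 °C roots, 1 of 9 was higher (background 12.6%) and 5 were lower (background 30.2%), with a median of -0.60 over members and -0.20 over all 21757 genes. In gradient roots against the 22 °C root, 2 were higher (11.1%) and 3 lower (5.1%), with medians of -0.22 and 0.10. In 32 °C roots against the 22 °C root, 4 were higher (32.1%) and 2 lower (11.9%), with medians of 0.04 and 0.29. The gradient against 22 °C count in roots was the least stable, at 3 without replicate 1 of the 32 °C roots and 2 without replicate 2 of the gradient roots.

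In gradient shoots against 32 °C shoots limma called no member, where 0.124% of 21837 genes were called higher and 0.266% lower, and 4 members had an unadjusted p below 0.05. Without replicate 1 of the 22 °C shoots 3 members (AOX1A, NDB3 and NDB4) were called, and likewise without replicate 2. The median was -0.74 over members and 0.01 over all genes. In gradient shoots against 22 °C shoots 6 were higher (52.6%) and 1 lower (11.2%), with medians of 1.53 and 0.48. In 32 °C shoots against 22 °C shoots 7 were higher (55.6%) and 1 lower (13.1%), with medians of 2.36 and 0.49. The gradient shares its 32 °C and 22 °C libraries with the other comparisons, so the 3 contrasts of an organ are not independent.

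Per kb of coding sequence, AOX1A was the most abundant message of the family in every group except the 22 °C shoots. In gradient roots the order of levels was AOX1A at 2012 normalised counts per kb, NDB2 at 1542, NDB1 at 329 and NDA2 at 219. AOX1C and AOX1D overlapped next, and NDB4, NDB3 and NDA1 overlapped at the bottom, between 6.52 and 14.9. In 32 °C roots AOX1A (3066) and NDB2 (1745) were followed by NDB4 at 590, NDB3 at 390 and NDB1 at 329, then by AOX1C and NDA2, which overlapped, and by NDA1 at 161 and AOX1D at 10.8. The 22 °C root had AOX1A at 2968, NDB2 at 1882, NDB1 at 383, NDA2 at 365 and AOX1D at 218, and the other 4 members each below 5.

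In gradient shoots AOX1A (1611 per kb) and NDA1 (1194) led, with NDB1 at 393 and NDB2 at 301, then AOX1C and NDA2, which overlapped, then AOX1D and NDB4, which also overlapped, and NDB3 at 11.5. In 32 °C shoots AOX1A (2697) and NDA1 (1139) led, with NDB2 at 510 above NDB1 at 377, AOX1C at 201 and NDA2 at 165. NDB4 at 156 overlapped NDA2, and AOX1D, spread from 32.4 to 192, overlapped both of these, AOX1C and NDB3 at 58.5. In 22 °C shoots NDA1 at 633 and NDB1 at 625 overlapped and stood above AOX1A at 531, and NDA2 and NDB2 came next at 161 and 131.

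The make-up of each branch differed by regime. NDB4 and NDB3 held 0.771% and 0.562% of the summed NDB level per kb in gradient roots, 19.3% and 12.9% in 32 °C roots, and 0.0755% and 0.202% in the 22 °C root. In shoots NDB4 held 4.15% in the gradient, 14.2% at 32 °C and 0.298% at 22 °C, while NDB1 held 53.4%, 34.3% and 82.4% in the same order. NDA1 held 2.87% of the NDA level in gradient roots, 41.8% in 32 °C roots and 0.71% in the 22 °C root, against 79.7% to 89.2% in shoots. AOX1A held a mean of 89.1% to 96.7% of the AOX level in every group, and AOX1C averaged 8.93% in gradient shoots, where its libraries had 7.64% and 10.2%.

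**Figure D3:**
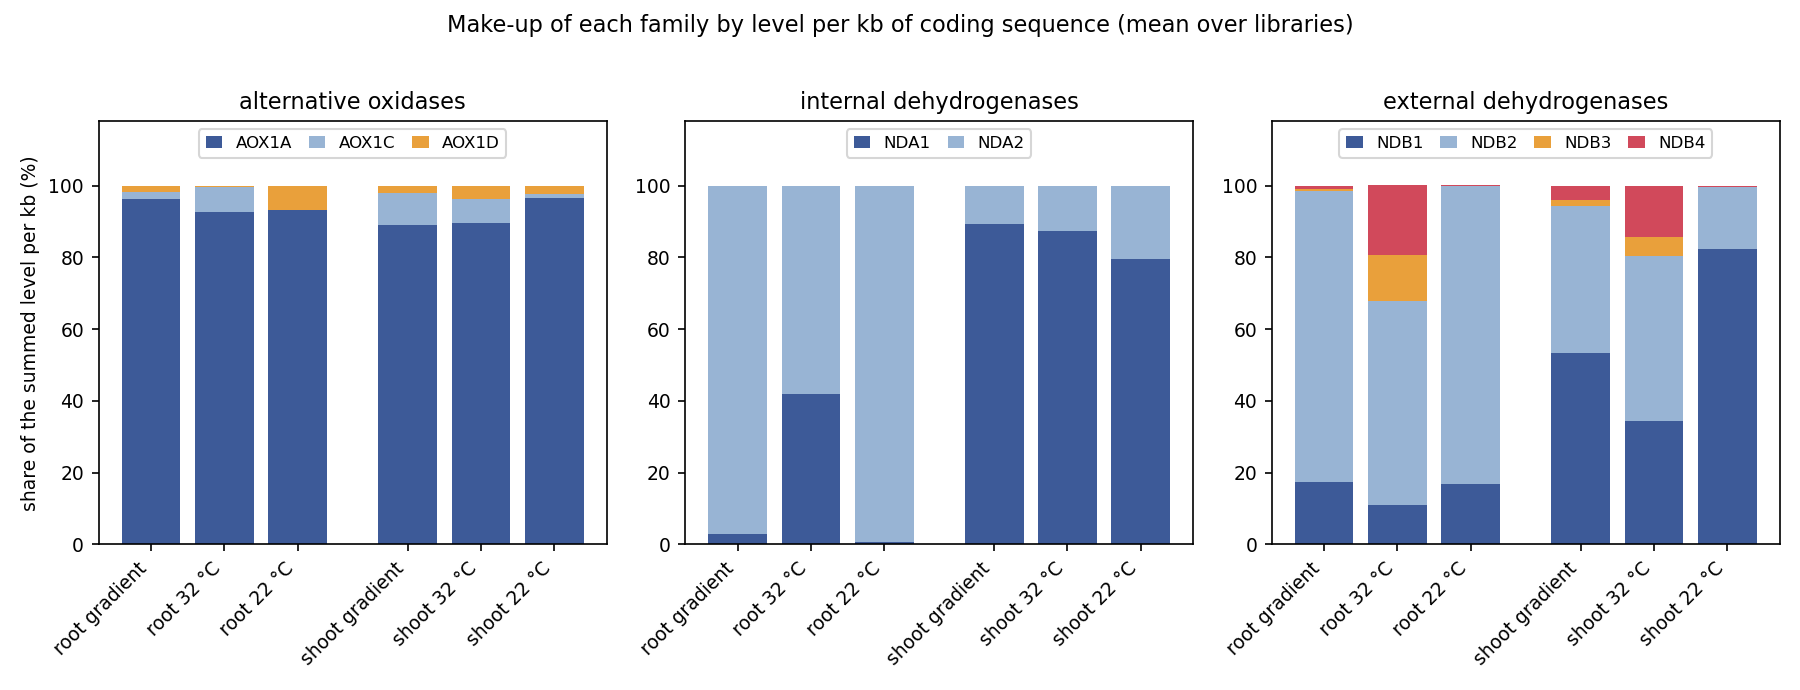
Stacked bars give each gene's share of its branch (percent of the summed normalised count per kb of coding sequence, mean over libraries) for alternative oxidases, internal and external dehydrogenases in each organ and regime. NDB3 and NDB4 fill 12.9% and 19.3% of the external branch in 32 °C roots and under 1% each in gradient and 22 °C roots.

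Message levels of several members differed between roots and shoots, as did those of most genes. NDB2 was higher in roots by 5.11-fold in the gradient, 3.41-fold at 32 °C and 14.6-fold at 22 °C, and NDA1 was lower in roots by 175-fold, 7.04-fold and 194-fold in the same order. The NDA1 folds in the gradient and at 22 °C rest on root values of 4 to 15, and a pseudocount of 8 moved their log2 values from -7.45 to -6.70 and from -7.60 to -6.35. AOX1A was 5.66-fold higher in the root at 22 °C (2.5 ± 0.16), while its difference at 32 °C, 0.18 ± 0.11, was not called. Root and shoot libraries of the same number deviated together at 32 °C, and in a fit with the replicate block over those libraries AOX1A was called at the same size, whereas TMM factors put it at -0.12 (not called). NDB3 and NDB4 were higher in roots at 32 °C, by 2.73 ± 0.35 and 1.90 ± 0.39. Called members numbered 6 of 9 in the gradient (72.8% of 22999 genes called), 6 at 32 °C (74.8%) and 7 at 22 °C (67.8%). The replicate block made the count at 32 °C 7. These counts are near the shares of all genes, so an organ difference is not particular to this family.

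The response itself also differed between organs. For 32 °C against 22 °C, the difference of root and shoot responses was called for 7 members (27.1% of genes). It was positive for NDA1 (4.79 ± 0.39), NDB4 (2.20 ± 0.70) and NDB1 (0.51 ± 0.16). It was negative for AOX1D (-7.33 ± 1.12), AOX1A (-2.32 ± 0.20), NDB2 (-2.10 ± 0.27) and NDA2 (-0.73 ± 0.23). On the count scale the NDA1 mean rose from 4 to 247 in roots and from 970 to 1747 in shoots. With a pseudocount of 8 the difference of responses was 3.57 for NDA1 and -6.00 for AOX1D. For the gradient against 22 °C it was called for AOX1D, AOX1A and NDB2 (26.2% of genes), and for the gradient against 32 °C for AOX1C, AOX1D, NDA1, NDB3 and NDB4 (27.2%). Several of these calls depended on single libraries. At 32 °C against 22 °C, NDB4 was not called without replicate 1 or 3 of the 32 °C roots, without replicate 1 of the 22 °C shoots or without any of the 32 °C shoots (1.90 to 2.26). NDB1 was not called without replicate 3 of the 32 °C roots, either 22 °C shoot or replicate 1 of the 32 °C shoots (0.49 to 0.52). NDA2 was not called without replicate 3 of the 32 °C roots, either 22 °C shoot or replicate 2 of the 32 °C shoots (-0.77 to -0.63), or with TMM factors (-0.59). The count for 32 °C against 22 °C was 4 without replicate 3 of the 32 °C roots or without replicate 1 of the 22 °C shoots, and that for the gradient against 22 °C was 6 without replicate 3 of the gradient roots. AOX1D in the gradient against 22 °C (-4.15) was not called without replicate 1 of the 22 °C shoots (-3.65) or the gradient shoot library with replicates 2 and 3 (-3.51), and was -4.79 without replicate 1 of the gradient shoots.

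Further oxidase, dehydrogenase and carrier genes gave mixed results. AOX1B, a further alternative oxidase, was at most 7 in any library and was not tested, and AOX2, reported mainly from seeds, averaged 13 ± 1.41 in gradient shoots and 4.33 ± 3.06 in 32 °C shoots, against 2.5 ± 0.707 in 22 °C shoots (SD, n = 2, 3 and 2). Its gradient shoots were called above 22 °C shoots (2.01 ± 0.70, limma adjusted p = 0.0351), a call that ended without either 22 °C shoot library. PTOX, the plastid terminal oxidase, was called higher at 32 °C than at 22 °C in roots (0.50 ± 0.17, limma adjusted p = 0.047) and in shoots (0.67 ± 0.08, limma adjusted p = 0.000152). NDC1, a type II dehydrogenase of plastids, was called higher at 32 °C in roots (0.46 ± 0.15, limma adjusted p = 0.0431), and its shoot value of 0.04 ± 0.09 was not; TMM factors ended both root calls, at 0.20 for PTOX and 0.16 for NDC1, and put NDC1 at -0.42 in shoots. The 6 uncoupling and dicarboxylate carriers are other inner membrane proteins that bypass or feed the chain, and DIC3 was not tested in roots. Of the 5 tested in roots, 2 were higher and 1 lower at 32 °C (0 and 1 with TMM factors). Of 6 in shoots, 2 were higher (1 higher and 1 lower with TMM factors). Over all genes as deposited, 32.1% were higher and 11.9% lower in roots, and 55.6% and 13.1% in shoots. The carrier gene DIC3 lay between 90 and 205 normalised counts in 3 libraries of 32 °C shoots, against 1 and 4 in 22 °C shoots (5.37 ± 0.46, limma adjusted p = 3.7e-05).

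Genes of the known mitochondrial dysfunction response were counted in the same way. Of 14 listed genes outside the family, 8 were called higher and 1 lower in 32 °C roots against the 22 °C root (median 1.78), where 32.1% of all genes were higher and 11.9% lower. In 32 °C shoots against 22 °C shoots 12 were higher and none lower (median 2.86), where 55.6% of all genes were higher and 13.1% lower. In gradient roots against 32 °C roots 1 was higher and 11 lower (median -1.66), where 12.6% of all genes were higher and 30.2% lower. In gradient shoots against 32 °C shoots 3 were lower (median -0.97; 0.266% of all genes), and this count was 0 without any single gradient or 32 °C shoot library and 5 without replicate 1 of the 22 °C shoots. In gradient roots against the 22 °C root 3 were higher and 4 lower (median 0.35), where 11.1% and 5.1% of all genes were. In gradient shoots against 22 °C shoots 10 were higher and 1 lower (median 2.20), where 52.6% and 11.2% of all genes were. The list was drawn up with earlier results of these data known, so nothing is read from its counts. It also holds mitochondrial small heat shock protein genes, which are known to respond to heat itself.

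Among these, the small heat shock protein gene HSP23.6 averaged 81.7 ± 25.5 normalised counts in gradient roots and 2253 ± 372 in 32 °C roots (SD, n = 3 each), and was listed at 0 in the 22 °C root. AT2G21640 averaged 116 ± 33.0 in gradient roots and 2358 ± 104 in 32 °C roots (SD, n = 3 each), against 62 in the 22 °C root, and fell in the gradient against 32 °C by 4.38 ± 0.20 (limma adjusted p = 8.8e-05). AT5G09570 rose at 32 °C against 22 °C by 6.91 ± 0.33 in roots (limma adjusted p = 3.05e-05) and 6.44 ± 0.14 in shoots (limma adjusted p = 3.19e-07). GSTU24, a glutathione transferase named here because it alone was called lower, fell by 2.04 ± 0.18 in 32 °C roots (limma adjusted p = 0.000197). ANAC013, one of the regulators that bind the motif and named after its values were seen, averaged 383 ± 67.7 in gradient roots and 1529 ± 101 in 32 °C roots (SD, n = 3 each), against 281 in the 22 °C root. It rose at 32 °C against 22 °C by 2.44 ± 0.21 in roots (limma adjusted p = 0.000187) and 2.65 ± 0.14 in shoots (limma adjusted p = 4.42e-06), and fell by 2.01 ± 0.15 in gradient against 32 °C roots (limma adjusted p = 0.000266). ANAC017, the membrane-bound regulator of the response, was not called in any within-organ comparison as deposited, and TMM factors put it at -0.38 and called in both warm regimes against 22 °C in shoots. It averaged 2577 ± 193 in gradient roots and 2523 ± 75.4 in 32 °C roots (SD, n = 3 each), against 2739 in the 22 °C root.

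Of 6 other regulators of AOX1A, none of the 4 tested in roots was called by limma in any of the 3 root comparisons, where 2, 1 and 0 had an unadjusted p below 0.05 for the gradient against 32 °C, the gradient against 22 °C and 32 °C against 22 °C. Over all genes 12.6% were higher and 30.2% lower in the first of these comparisons. The shares were 11.1% and 5.1% in the second, and 32.1% and 11.9% in the third. With TMM factors 1 regulator was called higher in gradient than in 32 °C roots and 1 lower in 32 °C roots than at 22 °C. In shoots WRKY15 was lower and MYB29 higher in both warm regimes against 22 °C, and CDKE1, also called lower, lost its call without replicate 2 of the 22 °C shoots. MYB29, known from the control of aliphatic glucosinolate genes as well, averaged 859 ± 227 in gradient shoots and 948 ± 344 in 32 °C shoots, against 87 and 104 in 22 °C shoots (SD, n = 2 and 3).

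Genes of the ordinary chain and of ATP synthase showed small median shifts. At 32 °C against 22 °C their direction in shoots depended on the scaling, except for complex II. At 32 °C against 22 °C in roots, 1 of 12 complex I genes was higher and 4 lower, and TMM factors made it 1 and 7. As deposited, 32.1% of all genes were higher and 11.9% lower there. The medians in roots were -0.36 for complex I, -0.12 for complex II, -0.06 for complex III with cytochrome c, -0.42 for complex IV and -0.34 for ATP synthase, where that of all genes was 0.29. In shoots 5 of 12 complex I genes were higher and none lower, against 1 higher and 7 lower with TMM factors. As deposited, 55.6% of all genes were higher and 13.1% lower in shoots. The shoot medians of 0.18 for complex I, 0.40 for complex III with cytochrome c, 0.32 for complex IV and 0.30 for ATP synthase lay below the 0.49 of all genes, and TMM factors turned them to -0.28, -0.05, -0.13 and -0.16. Complex II differed, with a shoot median over 4 tested genes of 0.73, or 0.27 with TMM factors. In gradient shoots against 22 °C shoots its median was 0.37 as deposited and -0.09 with TMM factors. The complex I gene higher in roots was GLDH, the last enzyme of ascorbate synthesis, which also helps to assemble complex I. It rose by 0.99 ± 0.15 in roots (limma adjusted p = 0.00169) and 0.73 ± 0.07 in shoots (limma adjusted p = 6.4e-05). Cytochrome c CYTC-2 had the strongest call among complex III genes in shoots (1.85 ± 0.16, limma adjusted p = 3.48e-05).

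More genes of other routes of electron entry to ubiquinone were lower than higher in warm shoots. Of 8 such genes, 1 was higher and 5 lower at 32 °C against 22 °C in shoots (1 and 6 with TMM factors). In roots 1 was higher and 2 lower (0 and 3 with TMM factors). Over all genes as deposited, 55.6% were higher and 13.1% lower in shoots, and 32.1% and 11.9% in roots. The proline dehydrogenase gene PRODH1 averaged 2879 ± 197 normalised counts in gradient shoots and 2029 ± 467 in 32 °C shoots, against 23289 ± 7814 in 22 °C shoots (SD, n = 2, 3 and 2), an 11.3-fold fall at 32 °C (SE 0.23 on the log2 scale, limma adjusted p = 1.09e-05). ETFQO, which passes electrons from amino acid breakdown to ubiquinone, fell by 2.01 ± 0.14 (limma adjusted p = 1.38e-05), and SDP6, a glycerol-3-phosphate dehydrogenase, rose by 0.90 ± 0.07 (limma adjusted p = 2.49e-05). Of 9 genes for mitochondrial NADH sources, 6 were higher and none lower in 32 °C shoots, where 55.6% of all genes were higher. With TMM factors 4 of these were higher and 4 lower.

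**Figure D4:**
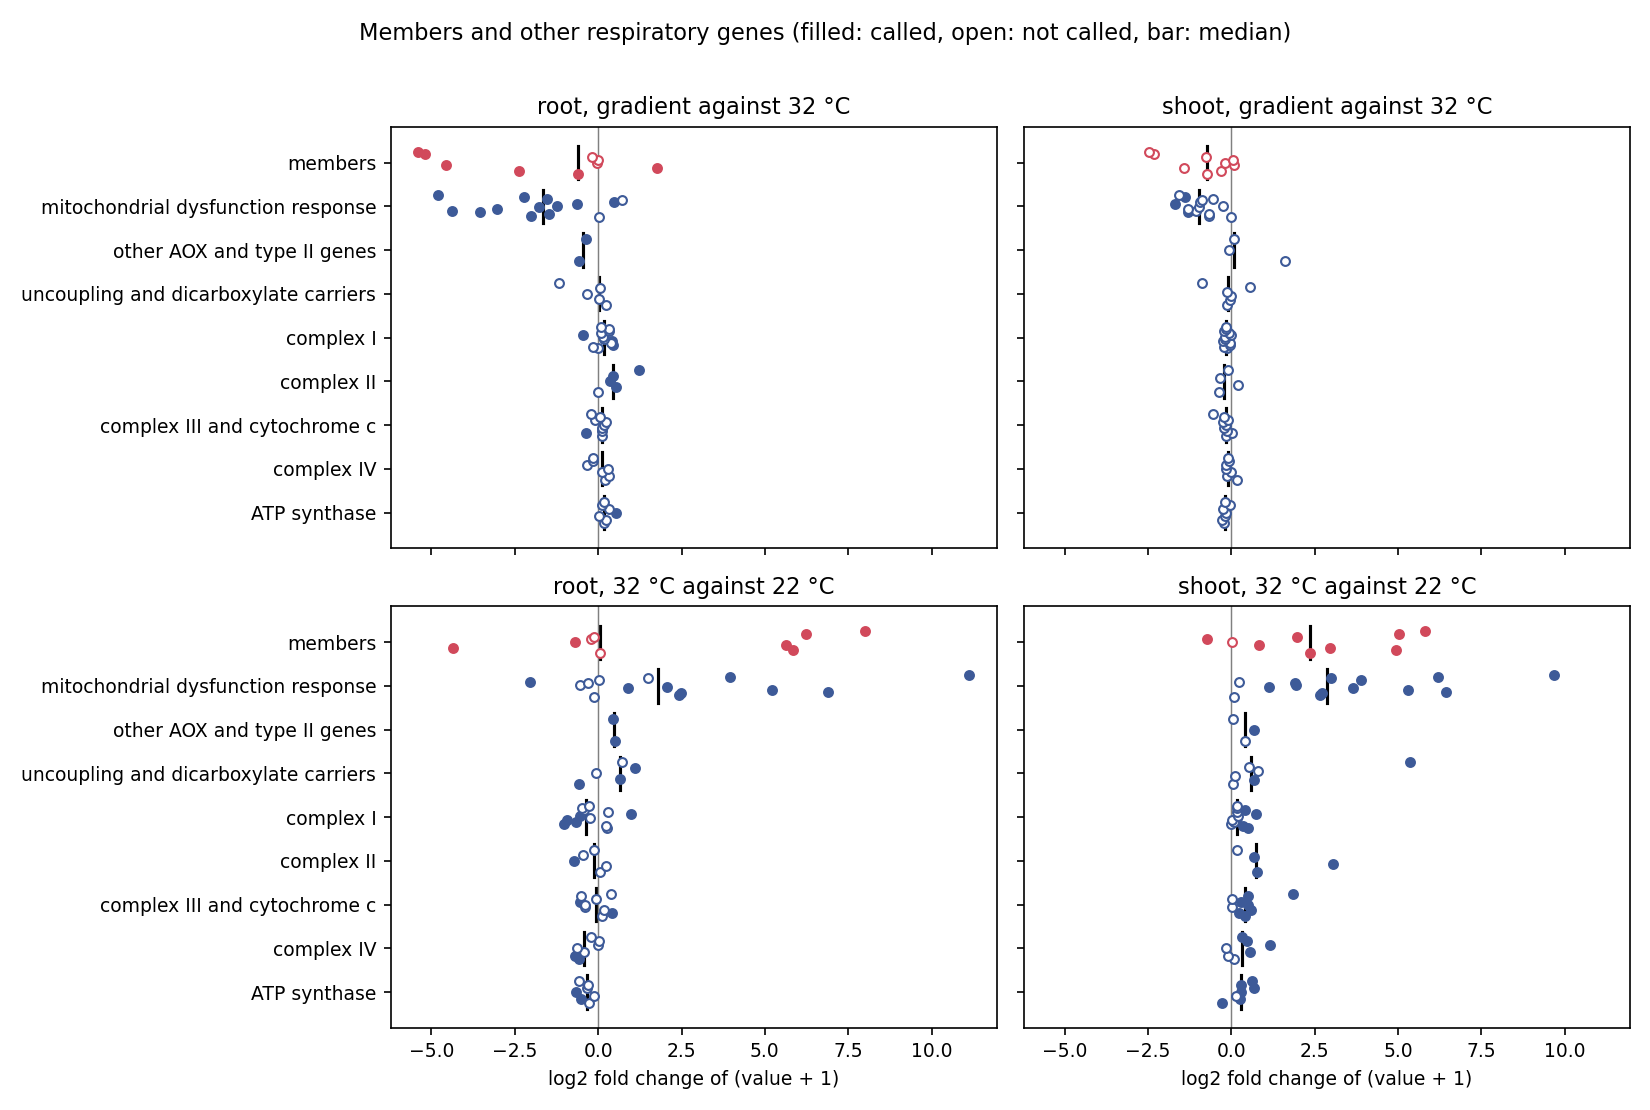
Each point is the log2 fold change of (value + 1) of a gene, by list (rows), with roots on the left, shoots on the right, the gradient against 32 °C above and 32 °C against 22 °C below; filled points were called over all genes and bars mark medians. The mitochondrial dysfunction list has medians of 1.78 in roots and 2.86 in shoots at 32 °C against 22 °C, and the members spread from -4.37 to 8.0 in roots.

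Likeness between genes was measured as the mean absolute difference of log2(value + 1) after each gene had its organ mean taken off, over 14 libraries and 20642 other genes. Of all those genes NDB3 was nearest to NDB4 (0.52), followed by ERF71, an ethylene response factor known from hypoxia (0.58). For NDB3 the nearest were AT3G58150 (0.48), AT2G21640 (0.49) and then NDB4. AOX1A was nearest to VTC2, an ascorbate synthesis gene (0.15), AKR4C8 (0.15) and CYP705A19 (0.17), with NDB2 7th (0.18), while NDB2 was nearest to LRL2, SPDS3 and PSK5 with AOX1A 18th.

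The rest of the family had no member among its nearest 3 genes. AOX1C was nearest to AT1G60970, ATMG00040 and AT5G47600 (0.25 to 0.32), AOX1D to GSTU4, PHT3;2 and TI1 (0.46 to 0.60), and NDA1 to AT5G52930, AT3G23860 and AT2G28815 (0.39 to 0.56). NDA2 was nearest to AT2G40815, LYC and AT3G54680 (0.08 to 0.09), and NDB1 to IRX9-L, SKdZeta and PEX22 (0.05 to 0.06). These distances describe 14 libraries that share regimes and organs.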

How the data were processed

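RNA was extracted from roots and shoots, and mRNA was isolated with oligo(dT) beads, per the labels' protocols. The deposited table holds whole numbers that the authors call normalised counts, treated here as a score because the way they were scaled is not stated in the labels. Tools named by the submitters' processing notes, in no stated role, are STAR (2.5.3a), HISAT2 and DESeq2.

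Tests used limma (3.58.1, under R 4.3.3) after the transformation log2(value + 1), with a mean per regime in 1 fit per organ, an intensity trend, two-sided tests and Benjamini-Hochberg adjustment over all genes with at least 10 in at least 2 distinct libraries. Calls had an adjusted p below 0.05. Organ differences came from 1 fit of both organs. Residual degrees of freedom were 4 per organ and 8 in the joint fit. The 22 °C root group holds 1 distinct library and was taken to vary as the root libraries of the warm regimes do. Nothing says that replicates came from separate plants, so errors measure only the spread between libraries. The scripts were tested on simulated data.

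Identity, promoters and coding lengths came from RefSeq TAIR10.1, with Biopython 1.88, by locus code (32548 of 32833 loci matched). Proteins were aligned globally (BLOSUM62, gap opening 11, extension 1). Python 3.11.15 with pandas 2.3.3 handled the tables.

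The members and the gene lists were chosen with earlier results of these data known. All members are reported. From the lists on further oxidases and dehydrogenases, carriers and AOX1A regulators any gene could be named, and from the other lists up to 3 called genes with the lowest adjusted p and uncalled genes of the highest mean. Same-numbered 32 °C roots and shoots deviated together (correlations across genes of 0.158, 0.240 and 0.258), which by a criterion of over 0.1 in each of at least 3 pairs makes their numbers a pairing, so a replicate block was fitted. No other groups with 3 pairs met it. Gradient and 22 °C shoots have 2 pairs, both at 0.123, which with 2 libraries each is 1 value given by construction, so they were not taken as paired. Alternatives were pseudocounts of 0.5 and 8, no filter, TMM factors (trimming 30% of log ratios and 5% of mean levels), 1 fit of all libraries, only the groups compared, identical columns kept separate, a block for the replicate number, and the omission of each library in turn. The block over the 32 °C libraries alone was chosen after seeing the data.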

Additional observations from a re-analysis of the deposited data

Results flagged for a closer look

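The root and shoot responses of these genes differed in the fit of both organs, and each difference below is the root log2 fold change minus the shoot log2 fold change. For 32 °C against 22 °C it was -2.32 for AOX1A, -7.33 for AOX1D, 4.79 for NDA1, -0.73 for NDA2, 0.51 for NDB1, -2.10 for NDB2 and 2.20 for NDB4. AOX1D responded with opposite signs in the organs, since every 32 °C root was below the 22 °C root and every 32 °C shoot above both 22 °C shoots. NDA1 rose in both organs, by 5.63 in roots and 0.84 in shoots on the log2 scale. With a pseudocount of 8 the difference was 3.57 for NDA1 and -6.00 for AOX1D.

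For the gradient against 22 °C the difference was -2.18 for AOX1A, -4.15 for AOX1D and -1.51 for NDB2. AOX1A fell in gradient roots and rose in gradient shoots. For the gradient against 32 °C it was -2.06 for AOX1C, 3.18 for AOX1D, -4.63 for NDA1, -2.86 for NDB3 and -2.92 for NDB4. AOX1D was not called there without replicate 1 of the 32 °C roots, replicate 2 of the gradient roots, replicate 2 or 3 of the 32 °C shoots or replicate 1 of the gradient shoots (2.54 to 3.03), and was 3.91 without replicate 1 of the 32 °C shoots and 3.82 without the gradient shoot library with replicates 2 and 3. NDB4 was -3.54 without replicate 1 of the gradient shoots and -2.30 without their other library. In NDA1 the gradient roots were far below the 32 °C roots while the shoots of these regimes overlapped. With a pseudocount of 8 the difference for the gradient against 32 °C was -3.92 for NDA1 and 2.49 for AOX1D. All of these rest on the contrasts by which the family was chosen, and those against 22 °C rest on 1 distinct root library. The part of the root marker signal in warm shoots was not tested.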

How the results depend on the processing

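The 22 °C root library cannot be left out, so root contrasts against 22 °C have no check of it, and unknown depth limits what can be said of values below about 10. Of 12 member counts, those not named here stayed within 1.5 times of the reported count under every alternative run. For the gradient against 22 °C in roots the count of 5 became 3 with no filter, 2 with only the groups compared, and 3 and 1 with the replicate block under the lower and higher number for the identical columns, and was 2 to 5 with 1 library left out. For the gradient against 32 °C in shoots the count of 0 became 2 with a pseudocount of 8, 1 with TMM factors, 3 in 1 fit of all libraries, 3 with only the groups compared and 4 with identical columns kept separate, and was 0 to 3 with 1 library left out. For the difference between organs at 32 °C against 22 °C the count of 7 became 4 with the replicate block (higher number) and was 4 to 7 with 1 library left out. For the gradient against 22 °C the count of 3 became 7 with identical columns kept separate and was 2 to 6 with 1 library left out. The count of the mitochondrial dysfunction list in gradient against 32 °C shoots, 3, became 0 with no filter, 5 in 1 fit of all libraries, 8 with identical columns kept separate and 0 with either replicate block, and was 0 to 5 with 1 library left out. The replicate block over the 32 °C libraries, where the numbers pair roots with shoots, added the call of AOX1A (7 members against 6) and changed no other call. The cause of these changes was not tested.

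With TMM factors 8 values that were called with or without them changed sign: in 32 °C against 22 °C shoots NDA2 became -0.43, NDC1 -0.42, UCP1 -0.41 and ANAC017 -0.38, and in gradient against 22 °C shoots NDC1 became -0.35, ANAC017 -0.38, SDH1-1 -0.0606 and ATP5 -0.0171. Another 8 member values, called under neither scaling, changed sign as well, among them AOX1A in 32 °C against 22 °C roots (0.04 as deposited, -0.26 with TMM factors). Over all genes the median fold change (log2) was 0.29 as deposited and -0.01 with TMM factors for 32 °C against 22 °C in roots, -0.20 and -0.00 for the gradient against 32 °C in roots, 0.49 and 0.04 for 32 °C against 22 °C in shoots, and 0.48 and 0.03 for the gradient against 22 °C in shoots. The split of higher against lower calls moved with it. In roots it was 2747 to 6571 as deposited and 4211 to 3785 with TMM factors for the gradient against 32 °C, 2425 to 1110 and 1752 to 1653 for the gradient against 22 °C, and 6980 to 2588 and 4199 to 4400 for 32 °C against 22 °C. In shoots it was 11494 to 2447 and 6246 to 6026 for the gradient against 22 °C, and 12134 to 2852 and 7070 to 6649 for 32 °C against 22 °C. For roots against shoots it was 11807 to 5398 and 8002 to 6898 at 32 °C, and 10735 to 4852 and 7610 to 7150 at 22 °C. For the difference of responses it was 1850 to 4410 and 2800 to 2593 for the gradient against 32 °C, 814 to 5219 and 1658 to 2726 for the gradient against 22 °C, and 1720 to 4520 and 2612 to 3794 for 32 °C against 22 °C.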
